A study of Homo sapiens with 12 samples.

Results

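The 10 genes described here respond to ligands of the transforming growth factor beta (TGF-beta) and bone morphogenetic protein (BMP) family: THBS1, ID1, ID2, ID3, SMAD6, SMAD7, TGIF1, ENG, SKIL and TAGLN. They were chosen by name, and all probes annotated to them were taken, 22 of the 47323 probes on the array. At least 1 probe of each gene was detected on 3 or more arrays, and 14 of the 22 probes were. The cells were VCaP, an established prostate cancer line grown out of a bone metastasis, in medium with 2.5% charcoal-stripped serum, which holds little steroid, for the last 100 h. Every culture carried an siRNA pool for 96 h, either siSCR, a control pool, or siPIAS1, a pool against the SUMO E3 ligase PIAS1. Within each siRNA, cells received 100 nM testosterone for 16 h or none. This gave 4 groups of 3 Illumina bead arrays: siSCR, siSCR with testosterone, siPIAS1, and siPIAS1 with testosterone. The knockdown was transient and all arrays come from 1 cell line. The labels do not say that the replicates were separate cultures, so p-values measure the spread between these samples, which may be technical.

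Ligands of this family bring together type I and type II receptors, serine/threonine kinases that phosphorylate receptor SMADs. SMAD2 and SMAD3 carry the TGF-beta and activin signal, SMAD1, SMAD5 and SMAD9 carry the BMP signal, and both kinds bind SMAD4 and act in the nucleus. ID1, ID2 and ID3 are classical BMP target genes, SMAD6 and SMAD7 are inhibitory SMADs induced as feedback, and SKIL and TGIF1 are nuclear corepressors of SMAD complexes. In prostate epithelium TGF-beta is known for restraining growth. PIAS proteins attach SUMO to many transcription factors, the androgen receptor among them.

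The level given below is the normalized log2 signal of the brightest detected probe of a gene, and a difference is in log2 units with its standard error after ±. A probe counted as detected on an array at a detection p under 0.01. Differences come from 1 limma model of 10710 genes, and "passed" means an adjusted p under 0.05 over all of them. The share of probes detected ran from 32.5% to 36.0% over the arrays, and their median raw signal from 93.7 to 110. Replicate 3 of siPIAS1 with testosterone stood apart, with a mean correlation of 0.978 to the other arrays of its group, against 0.986 to 0.996 for the remaining arrays. The targeted gene PIAS1 was lower after siPIAS1 by 1.21 ± 0.11 without testosterone and by 0.76 ± 0.11 with it (limma adjusted p = 9.00e-06 and 1.50e-04), and in both settings the groups did not overlap. Testosterone itself raised PIAS1 2.13-fold after siSCR and 2.90-fold after siPIAS1 (limma adjusted p = 1.48e-06 and 3.97e-08). Its mean was 10.32 in siSCR cells, 11.41 with testosterone, 9.11 in siPIAS1 cells and 10.65 with testosterone. The siPIAS1 cells with testosterone thus read above untreated control cells. Of the luminal epithelial markers, 6 of the 6 with a probe were detected (EPCAM, CDH1, KRT8, KRT18, HOXB13 and KLK3), KLK3 on 9 arrays and the others on all 12. ENG and TAGLN are also known from endothelium and smooth muscle. Of the endothelial markers, 0 of 6 were detected on 3 arrays, and of the fibroblast and smooth muscle markers 2 of 10 were, LUM and ACTA2, which is also among the response genes listed further on. Of the basal epithelial markers, 0 of the 2 with a probe were.

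Start regions of the members were read from RefSeq (GRCh38.p14), which held 9 of the 10 genes, and TAGLN is named only. The 3 ID genes are shown as a family of classical BMP targets, and SMAD6 because its start region was the only 1 of the 9 genes with the palindromic SMAD motif. Each line gives the 250 bases before the transcription start, 5′ to 3′ on the gene's strand. Capitals mark matches on either strand to GTCTAGAC, a palindromic SMAD site, GGCGCC, a GC-rich SMAD site that is its own reverse complement, or AGAACA, the core hexamer of the androgen response element, which reads TGTTCT on the other strand.
ID1 chr20:31605039-31605288, plus strand: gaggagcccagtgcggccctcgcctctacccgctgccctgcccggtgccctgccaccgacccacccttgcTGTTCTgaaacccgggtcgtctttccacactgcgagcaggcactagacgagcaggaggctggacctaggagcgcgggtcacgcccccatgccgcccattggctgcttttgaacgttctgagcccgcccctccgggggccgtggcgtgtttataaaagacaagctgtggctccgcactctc
ID2 chr2:8681806-8682055, plus strand: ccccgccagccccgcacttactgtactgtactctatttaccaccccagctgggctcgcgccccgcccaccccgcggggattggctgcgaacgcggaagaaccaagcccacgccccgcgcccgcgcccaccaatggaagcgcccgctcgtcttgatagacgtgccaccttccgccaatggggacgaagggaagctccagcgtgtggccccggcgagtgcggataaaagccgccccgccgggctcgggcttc
ID3 chr1:23559502-23559751, minus strand: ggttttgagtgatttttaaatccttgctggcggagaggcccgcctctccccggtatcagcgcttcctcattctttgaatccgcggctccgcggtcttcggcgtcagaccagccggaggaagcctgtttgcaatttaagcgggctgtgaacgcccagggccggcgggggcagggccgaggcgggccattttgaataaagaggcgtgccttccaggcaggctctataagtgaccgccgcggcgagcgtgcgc
SMAD6 chr15:66701986-66702235, plus strand: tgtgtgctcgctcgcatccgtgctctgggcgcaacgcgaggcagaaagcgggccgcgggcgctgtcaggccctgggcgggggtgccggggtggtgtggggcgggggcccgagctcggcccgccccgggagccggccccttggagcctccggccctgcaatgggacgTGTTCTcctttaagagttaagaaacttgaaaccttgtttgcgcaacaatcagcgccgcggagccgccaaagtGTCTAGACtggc
Counted from the start site, the first base of GTCTAGAC in the SMAD6 region lay at -12 and that of TGTTCT at -84, and in the ID1 region that of TGTTCT lay at -180. None of the 3 motifs overlapped another there. Over the same 250 bases of 35116 start regions, 0.182% held GTCTAGAC, 16.4% held GGCGCC and 12.4% held AGAACA. SKIL had 1 match to GGCGCC, and THBS1, ID2, ID3, SMAD7, TGIF1 and ENG had no match, which says only that these letters are not in this window.

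The first question was how testosterone acted on these genes in control cells. It raised ID1, ID2 and ENG and lowered THBS1, SMAD6 and SMAD7, and the other 4 did not pass. Thus 3 of 10 were higher, where 20.0% of all genes were, and 3 were lower, where 24.3% were. SKIL met the detection filter only through siPIAS1 with testosterone, the group where it was high, so it is left out of the counts that involve that group. Among the other 9 genes, testosterone after siPIAS1 raised ID1, ID2 and ID3 and lowered SMAD6, SMAD7 and TGIF1, which is 3 higher (25.4% of all genes) and 3 lower (29.7%). In all, 6 of 10 passed after siSCR and 6 of 9 after siPIAS1, beside 44.3% and 55.1% of all genes, shares near the background. Comparisons that share a group of arrays are not independent, and their values are given side by side.

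The second question was what the PIAS1 siRNA did at a fixed androgen state. Without testosterone THBS1, ID3 and TAGLN were higher than in control cells, 3 of 10 where 7.56% of all genes were higher, and 0 were lower by limma where 5.77% were (0 at an unadjusted p under 0.05). With scaling to the 75th percentile, the split of all genes in that comparison went from 810 higher and 618 lower to 1060 and 425. With testosterone, THBS1, ID1, ID2, ID3, SMAD6 and TAGLN were higher and ENG and TGIF1 lower, so that 8 of the 9 genes other than SKIL passed where 33.5% of all genes did. The 6 higher stand beside 16.3% and the 2 lower beside 17.2%. Among the 6, the SMAD6 call rests on signals below detection, and the ID2 groups overlapped, as given with each gene below. Of the 5 blood cell markers with a probe, 2 were tested, LYZ and CD14, and only LYZ was higher in siPIAS1 with testosterone. In siSCR, siSCR with testosterone, siPIAS1 and siPIAS1 with testosterone, LYZ means were 4.77, 5.31, 4.96 and 8.99, with detection on 3 arrays. In the same order CD14, detected on 12 arrays, read 7.30, 6.65, 6.67 and 6.52. The summed log2 level of both was 9.16 to 9.30 in siPIAS1 with testosterone and 6.94 to 7.62 in the others. PTPRC, CD3E and HBB were detected on 0 arrays, and the part of these signals in the results was not tested. The median difference of the 9 genes was 0.71 there, against -0.000991 over all genes. The genes were picked with results of these arrays known, so the counts describe them and are no independent evidence of a direction.

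The interaction, the testosterone response after siPIAS1 minus that after siSCR, passed for 5 of the 9 genes where 9.94% of all genes passed. It was positive for THBS1, ID3 and SMAD6 (4.88% of all genes) and negative for TGIF1 and ENG (5.06%). The interaction calls of THBS1, TGIF1 and ENG held in each of the 23 other settings tried. ID1, ID2, SMAD7 and TAGLN did not pass.

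**Figure D1:**
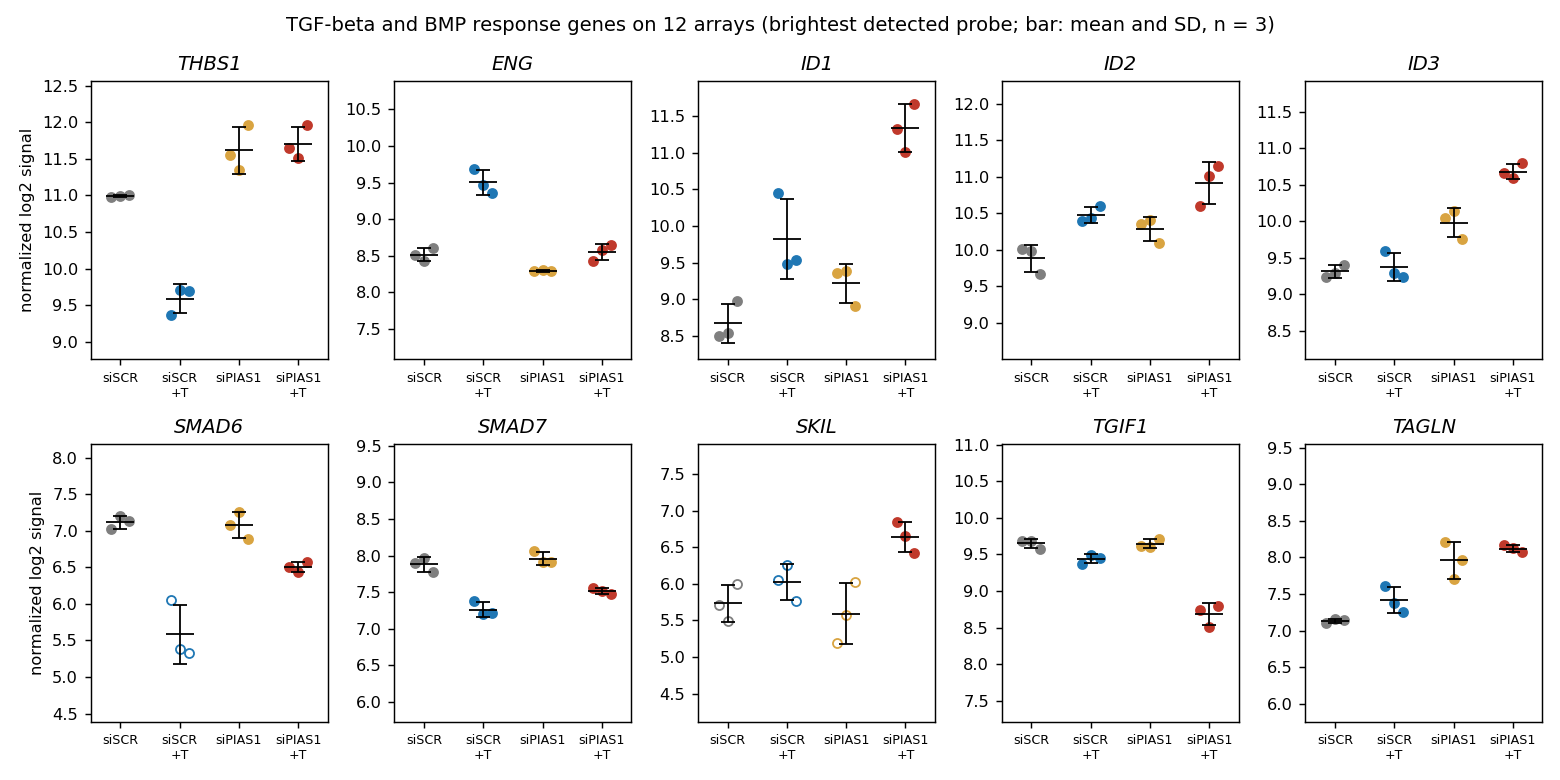
Normalized log2 signal of the brightest detected probe of each gene (vertical axis, the same span in each panel) on the 3 arrays of the 4 groups (horizontal axis, +T with 100 nM testosterone). Points are arrays, open where the probe was not detected, and bars give the mean and SD. THBS1 falls with testosterone only in siSCR cells, and ID1 and ID3 are highest in siPIAS1 cells with testosterone. SKIL was detected only in that group, through which it met the filter.

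THBS1 encodes thrombospondin 1, a secreted matrix protein that can release TGF-beta from its latent complex. Its signals on the 3 arrays were 10.98, 10.99 and 11.01 in siSCR cells and 9.36, 9.70 and 9.70 with testosterone. After siPIAS1 they were 11.55, 11.34 and 11.97 without and 11.65, 11.51 and 11.96 with testosterone. The control cells with testosterone were thus the low group, apart from every other array, while both siPIAS1 groups overlapped. Testosterone lowered THBS1 by 2.64-fold in control cells (-1.40 ± 0.16, limma adjusted p = 6.02e-06). After siPIAS1 the difference was 0.09 ± 0.16 (adjusted p = 0.654), with a 95% interval from -0.25 to 0.43. The interaction was 1.49 ± 0.22 (adjusted p = 8.82e-04). With testosterone present the siPIAS1 cells had 4.35-fold more THBS1 signal (2.12 ± 0.16, adjusted p = 4.48e-07), the largest difference among the 10 genes in that comparison. Without testosterone the difference was 0.63 ± 0.16 (adjusted p = 0.0187). That call was lost without siPIAS1 replicate 3 (0.45, adjusted p = 0.0845) or without any 1 of the siSCR arrays (adjusted p 0.0530 to 0.0646).

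ENG encodes endoglin, a co-receptor that binds BMP and TGF-beta ligands together with their receptors. Its signals were 8.51, 8.42 and 8.61 in siSCR cells, and 9.69, 9.47 and 9.35 with testosterone. In siPIAS1 cells they were 8.29, 8.31 and 8.29, and 8.43, 8.57 and 8.64 with testosterone. Here the control cells with testosterone were the high group, the reverse of THBS1, and siPIAS1 cells with testosterone overlapped the untreated controls. Testosterone raised ENG 1.98-fold in control cells (0.99 ± 0.11, adjusted p = 3.46e-06). After siPIAS1 the difference was 0.25 ± 0.11 (adjusted p = 0.0572, 95% interval 0.02 to 0.48), which passed without siSCR replicate 1 with testosterone and without siPIAS1 replicate 1 with testosterone (adjusted p = 0.0352 and 0.0376). The interaction was -0.74 ± 0.15 (adjusted p = 0.00716). With testosterone, ENG was 1.94-fold lower in siPIAS1 than in control cells (-0.96 ± 0.11, adjusted p = 1.89e-05), and without it the difference was -0.22 ± 0.11 (adjusted p = 0.195).

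The ID genes encode helix-loop-helix proteins without a DNA-binding region, which hold basic helix-loop-helix factors off their sites. By group mean all 3 were highest in siPIAS1 cells with testosterone and lowest in untreated siSCR cells. For ID3 the siSCR groups overlapped, and for ID2 the groups with testosterone did. ID1 read 8.49, 8.54 and 8.98 in siSCR cells and 10.45, 9.47 and 9.54 with testosterone. In siPIAS1 cells it read 9.36, 9.38 and 8.91, and 11.33, 11.01 and 11.67 with testosterone. The siPIAS1 arrays with testosterone lay above every other array, and the untreated groups overlapped. Replicate 1 of siSCR with testosterone was 0.95 above the mean of the other arrays of its group.

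Testosterone raised ID1 2.22-fold in control cells (1.15 ± 0.24, adjusted p = 0.00151) and 4.34-fold after siPIAS1 (2.12 ± 0.24, adjusted p = 6.07e-06). The interaction of 0.97 ± 0.35 did not pass (adjusted p = 0.0906), and it passed without siSCR replicate 1 with testosterone (1.28, adjusted p = 0.0119), without siPIAS1 replicate 2 with testosterone (adjusted p = 0.0477), with array weights (adjusted p = 0.0145) and without background correction (adjusted p = 0.0490). With testosterone, ID1 was 2.86-fold higher in siPIAS1 than in control cells (1.51 ± 0.24, adjusted p = 4.45e-04). Without testosterone the difference was 0.54 ± 0.24 (adjusted p = 0.168). The other ID1 probe met the filter mainly through siPIAS1 with testosterone, where it was detected on all 3 arrays, against 1 array of siSCR with testosterone and 0 of the untreated arrays, so its values are a description. It read 5.01 ± 0.16 in siSCR cells, 5.59 ± 0.74 with testosterone, 5.07 ± 0.03 in siPIAS1 cells and 6.93 ± 0.30 with testosterone (SD, n = 3).

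ID3 read 9.24, 9.30 and 9.41 in siSCR cells and 9.59, 9.29 and 9.24 with testosterone. In siPIAS1 cells it read 10.05, 10.14 and 9.76, and 10.66, 10.59 and 10.79 with testosterone. All siPIAS1 arrays lay above all siSCR arrays, and testosterone separated the arrays only within siPIAS1. The testosterone difference was 0.06 ± 0.12 in control cells (adjusted p = 0.741, 95% interval -0.21 to 0.33) and 0.70 ± 0.12 after siPIAS1 (adjusted p = 3.29e-04). The interaction was 0.64 ± 0.18 (adjusted p = 0.0357). It missed the threshold with no filter on dim probes (adjusted p = 0.0538) and with any 1 array left out (up to 0.0997) other than siSCR replicate 1 with testosterone, siPIAS1 replicate 2, or siPIAS1 replicates 2 and 3 with testosterone. PIAS1 siRNA raised ID3 1.59-fold without testosterone (0.67 ± 0.12, adjusted p = 0.00331) and 2.47-fold with it (1.31 ± 0.12, adjusted p = 5.02e-06).

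ID2 ranged from 9.67 to 11.14 over the 12 arrays. Its group means were 9.89 ± 0.19 in siSCR cells, 10.48 ± 0.11 with testosterone, 10.29 ± 0.17 in siPIAS1 cells and 10.91 ± 0.28 with testosterone (SD, n = 3). Testosterone raised it by 0.59 ± 0.15 after siSCR and by 0.63 ± 0.15 after siPIAS1 (adjusted p = 0.00424 and 0.00237), and the interaction was 0.03 ± 0.21 with a 95% interval from -0.41 to 0.48. With testosterone, ID2 was 0.43 ± 0.15 higher after siPIAS1 (adjusted p = 0.0350), although the groups overlapped, and the call was lost in 7 other settings, among them without siSCR replicate 1 or 2 with testosterone and without siPIAS1 replicate 2 or 3 with testosterone (adjusted p 0.0832 to 0.101). Its other probe gave 0.88 ± 0.15 in that comparison (adjusted p = 8.83e-04 over all detected probes, 28.9% of which passed), and without testosterone the brightest probe gave 0.40 ± 0.15 (adjusted p = 0.0899).

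**Figure D2:**
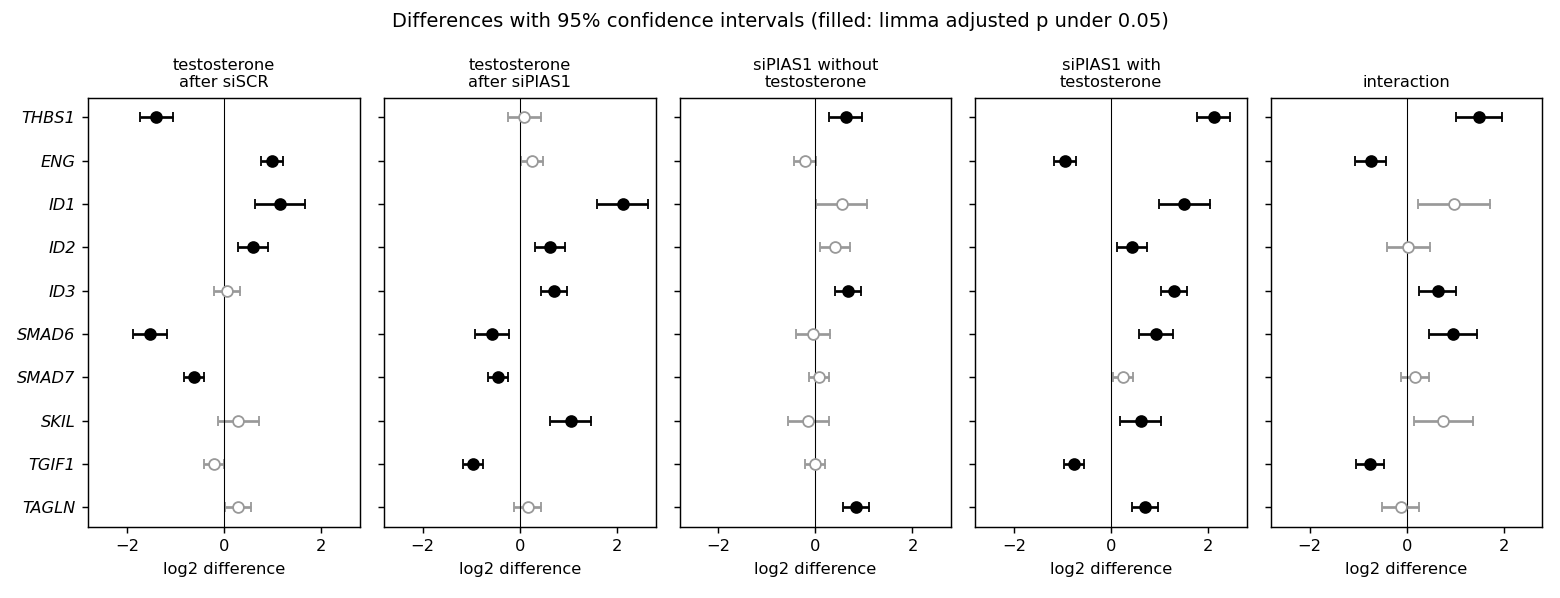
Log2 differences of the 10 genes (rows) in the 5 comparisons (panels), with 95% confidence intervals, filled where the limma adjusted p was under 0.05. In siPIAS1 cells with testosterone against control cells with testosterone, 8 of the 9 genes other than SKIL are filled, and 3 of them are without testosterone. SKIL, also filled there, was detected only in siPIAS1 cells with testosterone.

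The inhibitory SMADs fell with testosterone. SMAD6, which blocks BMP receptor signalling, read 7.02, 7.19 and 7.14 in siSCR cells and 6.05, 5.39 and 5.32 with testosterone, where the probe was detected on 0 of 3 arrays. In siPIAS1 cells it read 7.08, 7.26 and 6.89, and 6.50, 6.43 and 6.58 with testosterone, where it was detected on all arrays. The groups with testosterone did not overlap, and SMAD6 was thus lost from detection only in control cells. Testosterone lowered SMAD6 at least 1.77-fold in control cells (from 7.12 ± 0.09 to 5.59 ± 0.40, SD, n = 3, adjusted p = 3.27e-06) and 1.49-fold after siPIAS1 (-0.57 ± 0.16, adjusted p = 0.00868). With testosterone it was at least 1.16-fold higher in siPIAS1 than in control cells (adjusted p = 9.10e-04). The interaction was 0.96 ± 0.23 (adjusted p = 0.0178). Both of these rest on signals below detection: when every undetected signal was set to its array's lowest detected signal, the difference with testosterone was 0.21 (adjusted p = 0.143) and the interaction 0.25 (adjusted p = 0.293). Computed from the deposited normalized values the interaction missed the threshold too (0.21, adjusted p = 0.104), as it did without siSCR replicate 2 or 3 with testosterone or siPIAS1 replicate 3 (adjusted p 0.0531 to 0.0559). Without testosterone the siRNA made a difference of -0.04 ± 0.16 (adjusted p = 0.910).

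SMAD7, which targets the TGF-beta receptor complex, ranged from 7.20 to 8.06. It fell with testosterone by 0.62 ± 0.10 in control cells and by 0.44 ± 0.10 after siPIAS1 (adjusted p = 1.14e-04 and 0.00147), with no overlap of groups in either. The interaction was 0.18 ± 0.14 (adjusted p = 0.424). With testosterone present, siPIAS1 cells had 0.26 ± 0.10 more signal (adjusted p = 0.0546). That difference passed with scaling to the 75th percentile, with probes detected on all 12 arrays, with array weights, without siSCR replicate 1 with testosterone and without siPIAS1 replicate 3 with testosterone (adjusted p 0.0116 to 0.0462). The other SMAD7 probe fell as well, at least 1.20-fold in control cells and at least 1.48-fold after siPIAS1 (adjusted p = 0.00909 and 0.0131 over all detected probes, 39.9% and 51.3% of which passed). Its fitted differences were -0.89 ± 0.24 and -0.80 ± 0.24.

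The corepressors moved apart from each other. TGIF1, a homeodomain protein that recruits histone deacetylases to SMAD2 and SMAD3, read 9.69, 9.68 and 9.58 in siSCR cells and 9.37, 9.49 and 9.45 with testosterone. In siPIAS1 cells it read 9.62, 9.60 and 9.72, and 8.75, 8.51 and 8.79 with testosterone. The siPIAS1 arrays with testosterone lay below every other array. The testosterone difference was -0.21 ± 0.10 in control cells (adjusted p = 0.0986) and -0.97 ± 0.10, or 1.95-fold, after siPIAS1 (adjusted p = 1.80e-06). In control cells it passed on the authors' values and with array weights (adjusted p = 0.0194 and 0.0266). The interaction was -0.75 ± 0.14 (adjusted p = 0.00388). TGIF1 was 1.69-fold lower in siPIAS1 than in control cells with testosterone (-0.76 ± 0.10, adjusted p = 7.52e-05), and the difference without it was 0.00 ± 0.10 in size (adjusted p = 0.987).

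Both detected TGIF1 probes are annotated to the same transcript, and the second gave -0.85 ± 0.11 for testosterone after siPIAS1 and -0.77 ± 0.15 for the interaction (adjusted p = 1.67e-05 and 0.00707 over all detected probes, 7.76% of which passed in the interaction). The other 5 TGIF1 probes, annotated to this and to other transcripts, were detected on 0 of 12 arrays and read 4.62 to 5.92. SKIL, the corepressor SnoN, was detected only on the 3 arrays of siPIAS1 with testosterone, so that it entered the fit through the group where it was high and its values are a description, with no test. It read 6.84, 6.66 and 6.42 there and 5.19 to 6.27 on the other 9 arrays, none of which reached these values. Against the lowest detected signals, its level there was at least 1.38-fold that of siPIAS1 cells without testosterone and at least 1.27-fold that of control cells with testosterone. The other SKIL probe, annotated to the same transcript, was detected on 0 of 12 arrays and read 4.63 to 4.99.

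**Figure D3:**
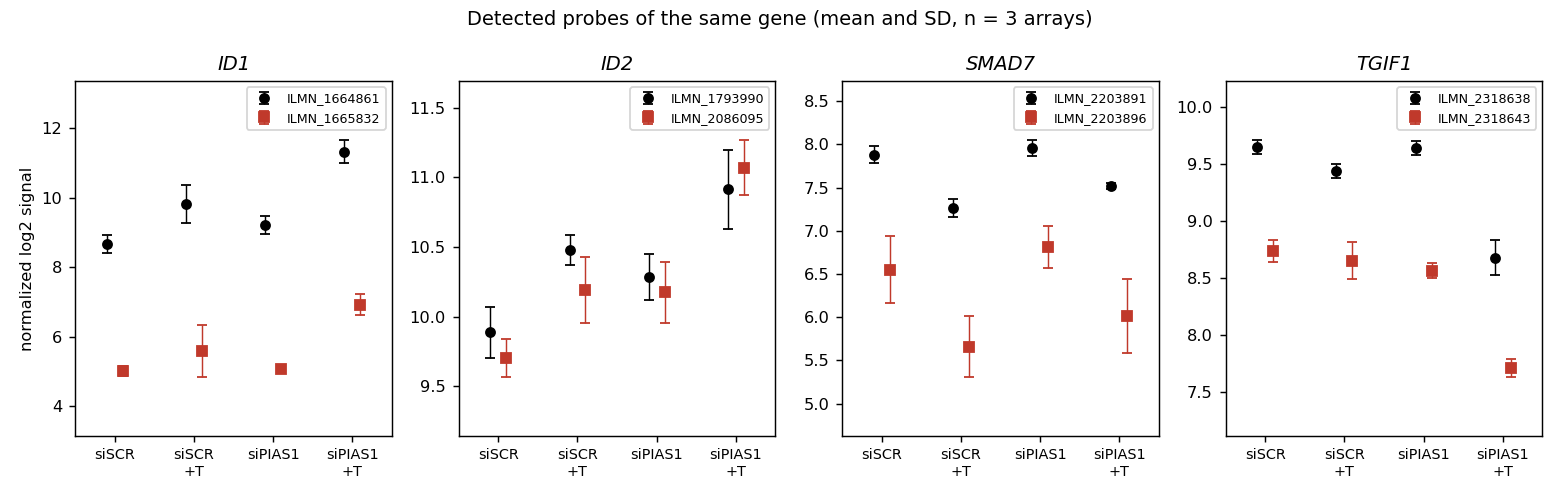
Normalized log2 signal (vertical axis) of both detected probes of ID1, ID2, SMAD7 and TGIF1 in the 4 groups (horizontal axis), as mean and SD of 3 arrays, with the probe used for the gene in black. Both probes of TGIF1 are lowest, and both probes of ID1 and ID2 highest, in siPIAS1 cells with testosterone, while levels of different probes cannot be compared.

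TAGLN encodes transgelin, an actin-binding protein and a TGF-beta target in smooth muscle. It was higher after siPIAS1 in both hormone states. In siSCR cells it read 7.10, 7.15 and 7.14, and 7.60, 7.38 and 7.26 with testosterone. In siPIAS1 cells it read 8.21, 7.70 and 7.97, and 8.17, 8.12 and 8.07 with testosterone. All siPIAS1 arrays lay above all siSCR arrays. TAGLN was 1.78-fold higher without testosterone (0.83 ± 0.13, adjusted p = 7.60e-04) and 1.63-fold higher with it (0.71 ± 0.13, adjusted p = 9.27e-04). The testosterone differences were 0.28 ± 0.13 and 0.16 ± 0.13 (adjusted p = 0.0859 and 0.298), the first of which passed with only those groups fitted (0.0408). The interaction was -0.12 ± 0.18 (adjusted p = 0.700). The other 2 TAGLN probes did not meet the detection filter and read 4.80 to 6.56. Of these, the probe annotated to the same transcript was detected on 1 array, in siPIAS1 with testosterone. Of the fibroblast and smooth muscle markers, MYH11, DES and CNN1 were detected on 0 arrays, and the summed signal of ACTA2 and LUM, in log2 units, was 9.57 to 9.76 in siSCR, 9.02 to 9.03 in siSCR with testosterone, 9.85 to 9.90 in siPIAS1 and 9.08 to 9.35 in siPIAS1 with testosterone. In the same order, group means were 9.05, 8.94, 9.08 and 9.19 for ACTA2. For LUM, detected on 6 arrays, they were 8.09, 4.91, 8.62 and 4.87. The part of these markers in the TAGLN difference was not tested.

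**Figure D4:**
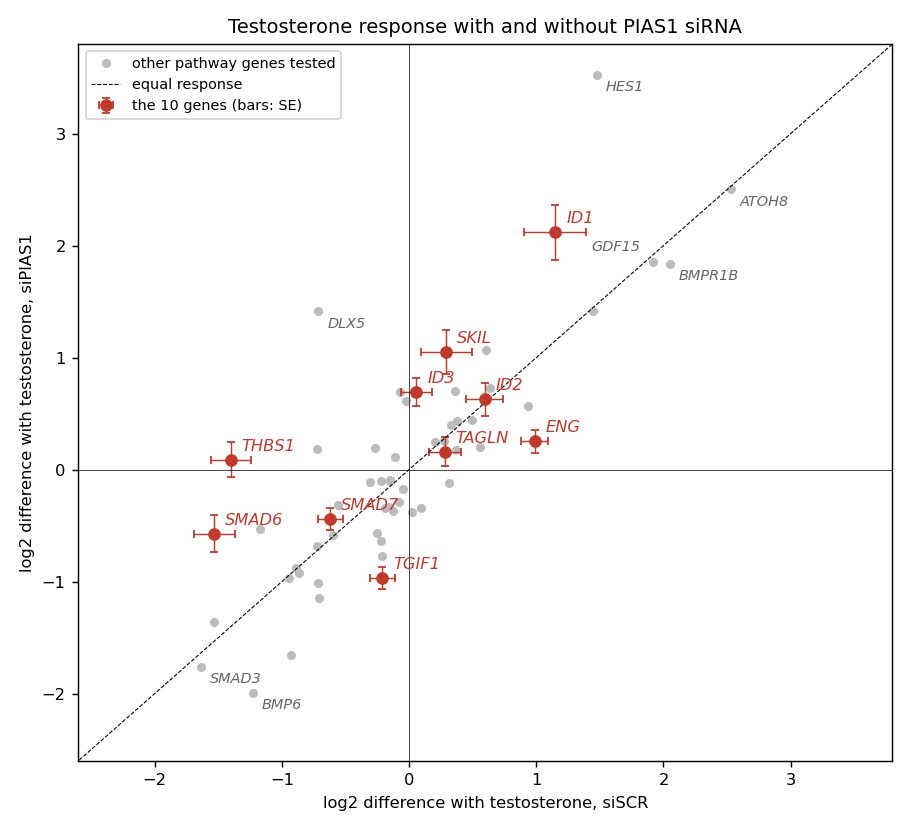
Log2 difference with testosterone in siSCR cells (horizontal axis) against that in siPIAS1 cells (vertical axis) for the 10 genes (red, with standard errors) and the other pathway genes tested (grey). THBS1, ID3, SMAD6, HES1 and DLX5 lie above the dashed line of equal response and ENG and TGIF1 below it. The place of SMAD6 rests on signals below detection. ID1 lies above the line too, but its interaction did not pass (limma adjusted p = 0.0906). SKIL was detected only in siPIAS1 cells with testosterone, so its point is a description. The axes share no array.

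Of 92 other genes of the pathway, listed by role, 87 had a probe and 51 were tested. Testosterone raised 13 and lowered 15 of the 51 in control cells and raised 16 and lowered 19 after siPIAS1. PIAS1 siRNA raised 5 and lowered 1 without testosterone, and raised 15 and lowered 8 with it. The interaction passed for 8, with 6 positive and 2 negative. These counts are 54.9%, 68.6%, 11.8%, 45.1% and 15.7% of the 51, beside 44.3%, 55.1%, 13.3%, 33.5% and 9.94% of all genes. BMP6, NRROS and CDKN2B met the detection filter only through the group where each was brightest, and without them 27, 32, 5, 20 and 7 of 48 passed.

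Among 6 ligands tested, 1 rose and 4 fell with testosterone in either siRNA, where 20.0% of all genes rose and 24.3% fell in control cells and 25.4% and 29.7% did after siPIAS1. The 4 include BMP6, which met the detection filter only through siPIAS1 cells without testosterone. Its fall after siPIAS1 was thus favoured by the filter and is a description only. GDF15, a stress-induced member of the family, rose 3.77-fold in control cells and 3.61-fold after siPIAS1 (1.92 ± 0.12 and 1.85 ± 0.12, adjusted p = 1.51e-08 and 1.99e-08). BMP6, a BMP ligand, read highest in siPIAS1 cells without testosterone, at 7.35 ± 0.07 against 6.14 ± 0.15 in untreated control cells (SD, n = 3), where it was detected on 1 of 3 arrays. With testosterone it was below detection on all 6 arrays. In the knockdown comparison GDF15 was 0.60 ± 0.12 higher without and 0.53 ± 0.12 higher with testosterone (adjusted p = 0.00565 and 0.00463). In the interaction, INHBB, a subunit of activin and inhibin, gave -0.72 ± 0.20 (adjusted p = 0.0315). That call was lost with no filter on dim probes (adjusted p = 0.0530) and without any siSCR array, siSCR replicate 1 or 3 with testosterone, or siPIAS1 replicate 1 or 2 (0.0555 to 0.0856). TGFB1, TGFB2, TGFB3, BMP2 and BMP4 were not detected on 3 arrays.

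Of 8 receptors and co-receptors, 2 rose and 2 fell with testosterone in control cells, and 2 rose and 3 fell after siPIAS1, beside the same shares of all genes. BMPR1B, a type I BMP receptor, rose 4.15-fold and 3.57-fold (2.05 ± 0.14 and 1.84 ± 0.14, adjusted p = 3.20e-08 and 9.17e-08). Its other detected probe gave 1.93 and 2.66. TGFBR2, the type II TGF-beta receptor, fell at least 1.40-fold in control cells (from 6.78 ± 0.16 to 5.61 ± 0.18, adjusted p = 2.27e-06), and TGFBR3, a co-receptor also called betaglycan, fell by 0.92 ± 0.15 after siPIAS1 (adjusted p = 1.33e-04). Both also read lower with testosterone in the other siRNA. The means went from 7.19 to 6.33 for TGFBR3 in control cells, and from 6.61 to 6.07, below detection, for TGFBR2 after siPIAS1. Without testosterone the siRNA changed 0 of the 8 by limma on the brightest probe (0 at an unadjusted p under 0.05), where 13.3% of all genes passed. The other BMPR1B probe gave -0.58 ± 0.10 there (adjusted p = 0.00295 over all detected probes, 9.58% of which passed). With testosterone the siRNA raised 2, TGFBR2 and ACVR2A, where 16.3% of all genes were higher. TGFBR2 was below detection on all 6 of those arrays, and ACVR2A gave 0.43 ± 0.15 (adjusted p = 0.0402), while a second probe of it gave -0.12. The ACVR2A call was lost in 13 other settings, with 0.25 without siSCR replicate 1 with testosterone (adjusted p = 0.153) and with array weights (0.101), 0.16 as the mean of its probes (0.371), and 0.15 on the deposited normalized values (0.0829). Leaving out 1 array kept it only for siSCR replicate 2 with testosterone, siPIAS1 replicates 2 and 3, and siPIAS1 replicate 2 with testosterone. On the brightest probes the interaction passed for TGFBR2 alone (0.64 ± 0.17, adjusted p = 0.0295), where 9.94% of all genes passed. It did not pass on the other TGFBR2 probe (0.40 ± 0.20, adjusted p = 0.218), and it was lost in 11 other settings, among them with undetected signals raised (0.13, adjusted p = 0.668), on the deposited normalized values (0.15, adjusted p = 0.165) and without siSCR replicate 1 or 3, siSCR replicate 1 or 2 with testosterone, siPIAS1 replicate 2 or 3, or siPIAS1 replicate 1 with testosterone (adjusted p 0.0501 to 0.0819). The other BMPR1B probe had an interaction of 0.73 ± 0.14 (adjusted p = 0.00726 over all detected probes), where the brightest gave -0.21 ± 0.20.

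Of 5 signal-carrying SMADs tested, SMAD3 fell 3.11-fold with testosterone in control cells (-1.63 ± 0.13, adjusted p = 1.22e-07) and at least 3.35-fold after siPIAS1 (-1.76 ± 0.13, adjusted p = 5.08e-08, detected there on 2 of 3 arrays). The common SMAD, SMAD4, rose by 0.55 ± 0.10 in control cells (adjusted p = 4.00e-04). SMAD9 fell by 0.57 ± 0.13 after siPIAS1 (adjusted p = 0.00257), and its other probe gave -0.30 ± 0.25. With testosterone the siRNA lowered 3 of the 5 and raised none by limma (0 at an unadjusted p under 0.05), where 17.2% of all genes were lower and 16.3% higher. SMAD2 gave -0.54 ± 0.11 (adjusted p = 0.00268). SMAD9 gave -0.43 ± 0.13 (adjusted p = 0.0250), and -0.42 ± 0.25 on its other probe (adjusted p = 0.228). The SMAD9 call was lost in 9 other settings, with -0.15 on the deposited normalized values (adjusted p = 0.0524) and -0.32 without siPIAS1 replicate 1 with testosterone (0.0956), and also without siPIAS1 replicate 3 or any siSCR array with testosterone (0.0540 to 0.0638). Without testosterone, and in the interaction, 0 of the 5 passed with limma (0 at an unadjusted p under 0.05 and 2 at an unadjusted p under 0.05). Of all genes, 13.3% and 9.94% passed there.

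Of 6 extracellular inhibitors and latency proteins, 2 rose and 3 fell with testosterone after siPIAS1, and of 8 intracellular inhibitors 2 rose and 4 fell, where 25.4% of all genes rose and 29.7% fell. FSTL1, a follistatin-like protein, fell with testosterone by 0.72 ± 0.10 and 0.68 ± 0.10 and was lower after siPIAS1 by 0.43 ± 0.10 without and by 0.39 ± 0.10 with testosterone (adjusted p up to 0.0108 in the 4 comparisons). The call without testosterone was lost without siSCR replicate 3 or siPIAS1 replicate 2 (adjusted p = 0.0513 and 0.0551). TWSG1, a BMP-binding protein, fell by 0.77 ± 0.12 with testosterone after siPIAS1, while its other probe gave 0.12 ± 0.12. NRROS passed only between groups in which it was below detection. FSTL3, an activin-binding protein, had an interaction of 0.66 ± 0.16 (adjusted p = 0.0178). It was the only 1 of the 6 to pass there, where 9.94% of all genes passed. That call was lost on the deposited normalized values (0.18, adjusted p = 0.0945) and without siSCR replicate 1, siSCR replicate 2 with testosterone or siPIAS1 replicate 3 (0.0506 to 0.0548). BAMBI, a pseudoreceptor that dampens TGF-beta and BMP signalling, was higher after siPIAS1 by 0.94 ± 0.12 without and by 0.96 ± 0.12 with testosterone (adjusted p = 2.33e-04 and 6.95e-05). TGIF2, the relative of TGIF1, fell with testosterone by 0.71 ± 0.13 in control cells and by 1.15 ± 0.13 after siPIAS1, and with testosterone it was lower in siPIAS1 cells by 0.77 ± 0.13 (adjusted p = 5.58e-04). NEDD4L, a ubiquitin ligase for activated SMAD2 and SMAD3, fell by 0.89 ± 0.10 and 0.88 ± 0.10 (adjusted p = 5.80e-06 and 5.29e-06). The interaction passed for 0 of 8 intracellular inhibitors with limma (2 at an unadjusted p under 0.05), where 9.94% of all genes passed.

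Of 18 other response genes, PIAS1 siRNA raised 8 and lowered none with testosterone by limma (0 at an unadjusted p under 0.05), where 16.3% of all genes were higher and 17.2% lower, and raised 2 without it, where 7.56% were higher. The 2 were CDKN1A and ATOH8, and ATOH8 was detected there on 0 of 3 siSCR and 1 of 3 siPIAS1 arrays. The ATOH8 difference of 0.92 ± 0.11 ran from 0.07 to 1.10 over the settings, with adjusted p up to 0.756. CDKN2B, named after its values were seen, is among the 8 and met the filter only through siPIAS1 with testosterone. DLX5, a homeobox gene induced by BMP in bone, was at least 5.25-fold higher in siPIAS1 cells with testosterone than in control cells with testosterone (from 6.28 ± 0.22, detected on 1 of 3 arrays, to 8.79 ± 0.16, SD, n = 3, adjusted p = 1.19e-08). HES1, a repressor best known as a Notch target, rose at least 11.2-fold with testosterone after siPIAS1 (from 6.28 ± 0.25 to 9.80 ± 0.32, adjusted p = 1.60e-09) and was 2.90-fold higher than in control cells with testosterone (1.53 ± 0.18, adjusted p = 3.49e-05). In the interaction 4 of the 18 passed, all positive, where 4.88% of all genes were: DLX5 (2.12 ± 0.18, adjusted p = 7.56e-06), HES1 (2.05 ± 0.26, adjusted p = 1.91e-04), MSX1 (0.91 ± 0.18) and CCN1 (0.76 ± 0.22), the last pair named after their values were seen. ATOH8, a BMP-induced helix-loop-helix factor, rose with testosterone at least 2.87-fold in control cells and at least 5.08-fold after siPIAS1 (adjusted p = 2.59e-10 and 2.12e-10). The fitted differences were alike, 2.53 ± 0.11 and 2.50 ± 0.11. The bounds depend on the detection floor and do not compare the responses. CDKN1A, a cell cycle inhibitor induced by TGF-beta and by p53, rose 2.72-fold with testosterone in control cells (1.44 ± 0.12) and was 1.92-fold higher after siPIAS1 without testosterone (0.94 ± 0.12, adjusted p = 2.29e-04).

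**Figure D5:**
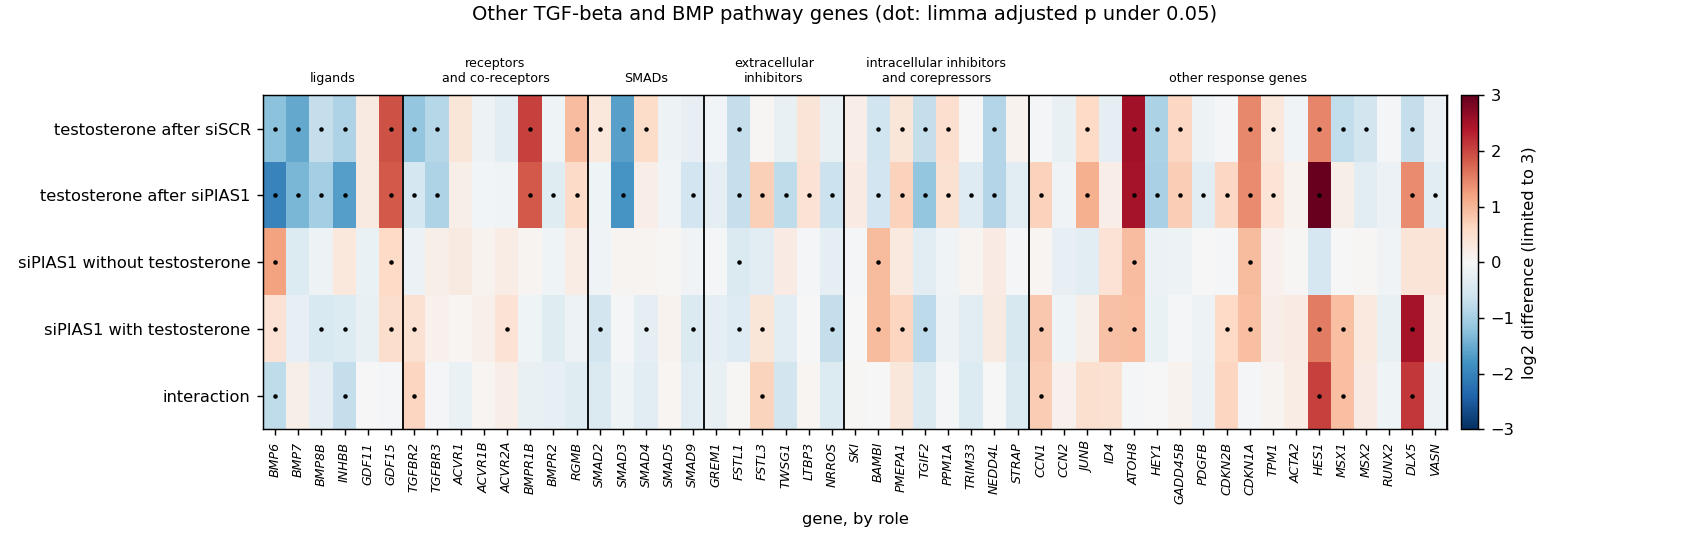
Log2 differences (colour, limited to 3 in either direction) of the 51 other pathway genes tested (columns, by role) in the 5 comparisons (rows), with a dot where the limma adjusted p was under 0.05. BMPR1B, GDF15 and ATOH8 are red and SMAD3 blue in both testosterone rows, and HES1 and DLX5 stand out in the last rows. BMP6, blue in both testosterone rows, was below detection on every array with testosterone. It met the filter only through siPIAS1 cells without testosterone, so its colours are a description.

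Likeness to a member was measured as the mean absolute difference of log2 signals over the 12 arrays, each gene centred on its own mean. Among the members themselves ID3 and TAGLN were closest (0.245). Over all genes, those nearest to THBS1 were UGT2B10, ASTN2 and VLDLR-AS1 (0.204 to 0.220), and those nearest to ID1 were ZBTB16, DISP2 and PRAME (0.223 to 0.268). H2BC8, STARD10 and RAB3B were nearest to ID3 (0.0946 to 0.124), and H4C8, CD9 and SEC22B to ID2 (0.109 to 0.119). For ENG they were GALNT18, NFKBIE and DNPEP (0.109 to 0.127), for SMAD6 FBP1, DLK2 and LINGO1 (0.157 to 0.159), and for SKIL UBTD1, DNM1L and CFAP91 (0.170 to 0.171). SKIL was detected only in siPIAS1 cells with testosterone, so its likeness rests mostly on signals below detection and is a description. TGIF1, SMAD7 and TAGLN had group means spanning under 1 log2 unit and were not searched.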

How the data were processed

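Per the labels' protocols, biotin-labelled cRNA from 12 VCaP samples was hybridised to Illumina arrays. Each probe's scanner intensity was deposited as read, with no normalization per the file headers, and a detection p-value was deposited beside it. The authors deposited normalized log2 values too, whose transform is not given in the sources used here beyond lumi in the submitters' processing notes. They ranked probes as the scanner signal did (lowest rank correlation 1) and served as an alternative. Here neqc corrected the intensities for background and quantile-normalized them (offset 16) in limma 3.58.1 under R 4.3.3. Gene names came from the platform annotation and were brought up to date through RefSeq (GRCh38.p14). Probes with a detection p under 0.01 on at least 3 arrays were kept (17835), and the brightest stood for its gene (10710 genes). A limma model of 4 group means gave two-sided moderated tests, adjusted by Benjamini-Hochberg over all genes, and a second fit covered all detected probes. Only the fit of genes was tried on simulated data, with independent normal noise. "At least" folds, given where the dimmer group held an array without detection, use each array's lowest detected signal as a floor. Folds at low signal are compressed by the offset. The number of arrays limits the precision, and the standard error of a difference between 2 groups had a median of 0.126. The 10 genes, the role lists and the naming rule (all 10 genes, PIAS1, up to 2 genes per role and comparison with the smallest p among those that passed, and the 3 most alike genes for members spanning 1 log2 unit or more) were chosen with earlier results of these data known.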

Additional observations from a re-analysis of the deposited data

Results flagged for a closer look

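For 5 of the 10 genes the testosterone response after siPIAS1 differed from that after siSCR by the interaction term of the limma model. The differences were 1.49 ± 0.22 for THBS1 (adjusted p = 8.82e-04), 0.96 ± 0.23 for SMAD6 (adjusted p = 0.0178) and 0.64 ± 0.18 for ID3 (adjusted p = 0.0357). They were -0.75 ± 0.14 for TGIF1 (adjusted p = 0.00388) and -0.74 ± 0.15 for ENG (adjusted p = 0.00716). The ID3 and SMAD6 calls were lost in several other settings, whose values are given with each gene or, for the replicate block and ID3, further below. No group had the 4 arrays that the test for a single outlying array needs.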

How the results depend on the processing

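Each result was recomputed under 24 other settings, 12 of which left out 1 array each, and all were chosen with earlier results known. The interactions of THBS1, TGIF1 and ENG kept their call and direction wherever they could be computed, with adjusted p up to 0.00379, 0.0150 and 0.0246. Without testosterone the number of the 10 genes called after siPIAS1 went from 3 to 5 with array weights and to 5 with only those groups fitted, where ID1 and ID2 were added, while the count over all genes went from 1428 to 3357 and 2707. With testosterone, fitting only those groups took the count over all genes from 3586 to 1981, and array weights took that of the interaction from 1065 to 2612. With 1 array left out, these counts ranged from 765 to 2481 without testosterone, from 2380 to 3753 with it, and from 656 to 1506 for the interaction, in which 3 to 6 of the 10 genes, SKIL included, passed. For siPIAS1 with testosterone, 7 of the 10 genes, SKIL included, were higher. Over the other settings 5 to 8 were, with 2 lower in each. Directions turned only for differences that had not passed, apart from signals below detection. With array weights ID3 gave -0.0118 for testosterone after siSCR and ID2 gave -0.1212 for the interaction. For siPIAS1 without testosterone, SMAD6 and TGIF1 gave 0.0795 and 0.0366 with scaling to the 75th percentile, TGIF1 gave 0.0120 on the authors' values, and SKIL gave 0.0355 with undetected signals raised. That last setting also turned called differences of BMP6, to 0.0793 for testosterone after siSCR and to -0.0515 for siPIAS1 with testosterone, and TGFBR2 to -0.0515 for siPIAS1 with testosterone. With 1 array left out, differences that changed sign ranged from -0.0505 to 0.1247 (ID3, testosterone after siSCR), -0.0491 to 0.264 (THBS1, testosterone after siPIAS1), -0.13 to 0.0524, -0.0392 to 0.0173 and -0.3573 to 0.0575 (SMAD6, TGIF1 and SKIL, siPIAS1 without testosterone), and -0.0803 to 0.1926 and -0.2495 to 0.0034 (ID2 and TAGLN, interaction). The cause of these changes was not tested. Signals near background limit SKIL, SMAD6 and the dimmer probes.

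The replicate number as a block took the interaction calls from 5 to 4 of the 10 genes, as ID3 missed the threshold (0.6381, adjusted p = 0.0545), and it changed no other call of the 10 genes. Same-numbered arrays of different groups correlated in their deviations by -0.260 to 0.195, over 0.1 in 3 of 18 pairs. These deviations, from means of 3 arrays, show no pairing by number and cannot exclude one. An array correlated best with its own number in 9 of 36 cases.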

Other observations

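In siSCR cells with testosterone, replicate 1 had the highest signal of its group for 6 of the 10 genes (ID1, ID3, SMAD6, SMAD7, ENG and TAGLN), while 43.7% of all genes were highest on that array. Set against the mean of replicates 2 and 3, that array differed by 0.95 for ID1, 0.69 for SMAD6, 0.33 for ID3 and -0.34 for THBS1. In siPIAS1 cells with testosterone, replicate 3, the array that stood apart, was highest for 7 of the 10 genes, against 39.5% of all genes. These counts were made after the values had been seen.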
